A study of Solanum tuberosum with 72 samples.

Results

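In potato seedlings, 128 array spots moved clearly in leaf after 27 h of salt while staying close to the control after 27 h of cold. They were taken from 13585 spots that had at least 2 values in each of the 24 groups of arrays, out of 32448 spots in all. For each spot the change was the mean of the 3 stress arrays minus that of the 3 matching control arrays (same tissue, same time), in deposited log2 ratios. A spot was kept where this change was at least 0.75 in size in leaf salt at 27 h and under 0.4 in size in leaf cold at 27 h. The 77 spots with a positive change in leaf salt and the 51 with a negative one are described apart. These 2 comparisons chose the spots, so their values at 27 h are a description, and nothing is drawn from a test of them.

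The plants were seedlings of potato (Solanum tuberosum) raised from true seeds of the variety Gilroy and were 5 weeks old. They grew in hydroponic culture at 25 °C, with 16 h of light and 8 h of dark. Stressed plants were held at 4 °C (cold) or 35 °C (heat) or were given NaCl, and control plants were left unstressed. The NaCl level reads 100 mM in the sample descriptions and 150 mM under treatment, so which was used is not settled. Roots and aerial tissue, here called leaf, were taken after 3, 9 and 27 h. Each combination of tissue, time and condition had 3 arrays, 72 in all, and each sample pooled 6 plants. The 3 arrays of a group came from 3 independent runs of the whole experiment, numbered as replicates 1 to 3. Each array carried the sample in Cy3 and a pool of unstressed plants from that tissue, time and run in Cy5 as the reference. Which dye is the numerator of the deposited ratio is not given in the sources used here. A positive change therefore means only that the ratio was higher under stress than in the control, and it can be more or less RNA. Signs can be compared with one another, because no dyes were swapped.

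Salt reaches a leaf both as a shortage of water, which follows quickly from the lower water potential of the medium, and as sodium that accumulates more slowly in the shoot. Cold slows enzymes and stiffens membranes, and plants answer it partly through the CBF transcription factors and partly through abscisic acid, a hormone that salt and drought also raise. Many plant genes therefore answer both stresses. Here 393 spots were beyond both limits with a positive sign in both stresses, 470 with a negative sign in both, and 14 with opposite signs. Both changes were taken against the same control arrays, so an error in those arrays shifts both changes the same way. How much of this split came from the shared controls was not tested.

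The chosen spots had a median change in leaf salt at 27 h of 0.93 for the positive set, from 0.75 to 1.96, and of -0.86 for the negative set, from -1.55 to -0.75. Their medians in leaf cold at 27 h were 0.24 and -0.16. The positive spot nearest to the salt limit on the inside stood at 0.75, and the nearest one outside at 0.746. On the cold limit the nearest positive spots stood at 0.396 inside and 0.406 outside. The corresponding negative spots stood at -0.75 and -0.749 for salt, and at 0.389 and -0.404 for cold, the last 2 with opposite signs. The values on both sides of each limit therefore form a continuous range. A further 46 spots met both limits but lacked values in other groups and were left out.

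Most sequences were printed as a pair of spots, 844 or 1859 rows apart within each of the 12 blocks of 2704 rows. No label states this layout. It was worked out from the array values together with the annotated pairs of spots that have the same sequence accession. All 905 such pairs fell on partner spots, but they had helped to set the layout, so this is not an independent check. The counts of printed sequences rest on this layout. Both partners met the rule for 25 pairs of the positive set and 11 pairs of the negative set, so the 128 spots stand for 52 and 40 printed sequences. Partners within these pairs had a median correlation of 0.98 over the arrays and a lowest one of 0.913, and their difference had a median SD of 0.127. Another 27 positive and 29 negative spots were chosen without their partner. Of those partners, 21 and 24 had enough values but fell outside a limit. The partners outside had a median leaf salt change at 27 h of 0.737 and -0.696. The positive spots lay in 11 of the 12 blocks and the negative spots in all 12.

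The choice was repeated on each pair of experiments and read in the experiment left out. Of the positive spots chosen without replicate 1, 2 or 3, 98.5%, 95.9% and 88.7% were positive in leaf salt at 27 h in the replicate that had not been used. For the negative spots 89.2%, 86.7% and 77.2% were negative there, while 50.5% to 51.9% of all spots were positive. Staying close to the control in cold held less well. Only 49.3% to 57.4% of the positive and 57.8% to 62.0% of the negative spots were within 0.4 in cold in the unused replicate, against 61.6% to 68.6% of all spots. Both limits were met in the unused replicate by 25.4%, 26.5% and 6.60% of the positive spots and by 19.3%, 21.1% and 14.1% of the negative ones. Among all spots the shares were 1.02%, 0.993% and 0.786%. A salt change of the chosen sign thus recurred in most spots, and nearness to the control in cold was no more frequent than among spots at large.

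The array file names spots by number only, and a table of genes for its spots named 8 of the 128, standing for 5 genes. These were LOC102594491, LOC102587659 (a pair) and PR1B (a pair) among the positive spots and LOC102593050 and 16R (a pair) among the negative ones. The other spots are given by number. No spot with a single gene name matched the lists of leaf and root marker genes, so the tissue labels could not be checked against markers. The tests below compared the groups with limma, fitted over the 36 arrays of a tissue, and a spot is called where the Benjamini-Hochberg adjusted p over all spots of the fit was under 0.05. The replicate experiments are those that also entered the rule, although the arrays at 3 and 9 h and all root arrays did not.

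**Figure D1:**
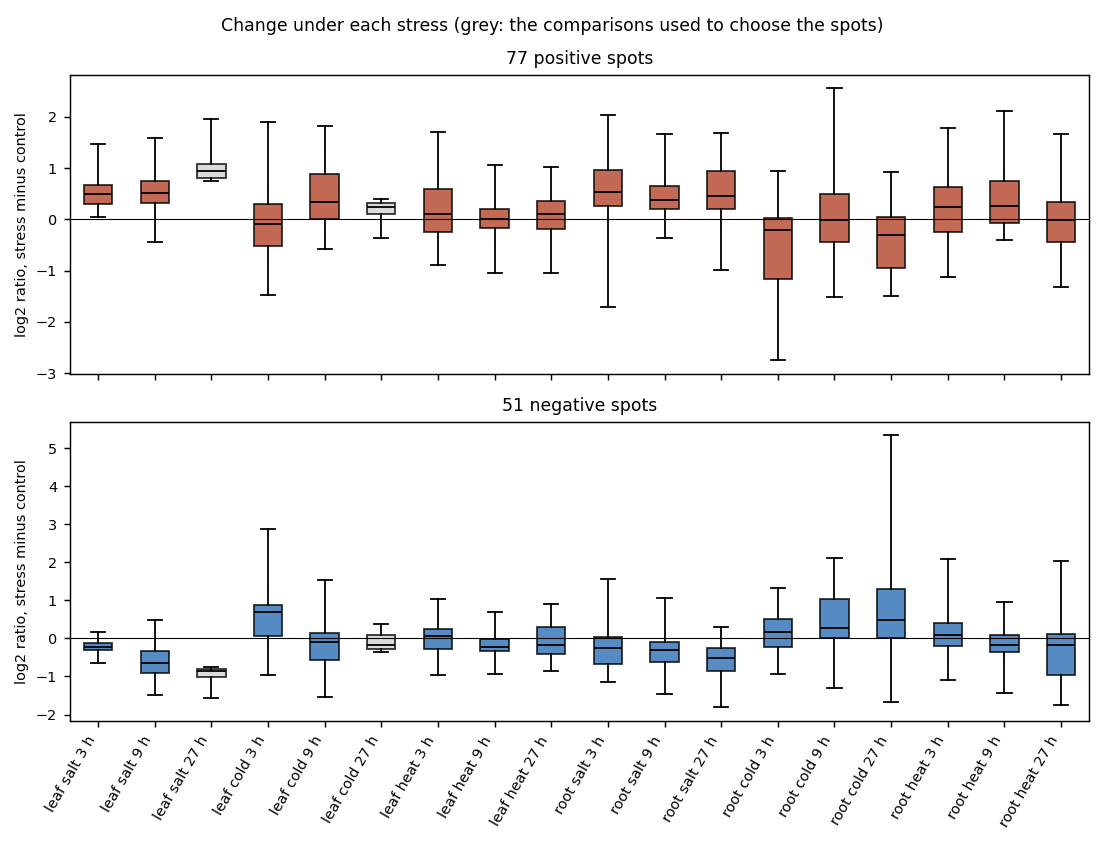
Change under each stress for the 77 positive spots (upper panel) and 51 negative spots (lower panel), as log2 ratio on stress arrays minus control arrays. Boxes span the quartiles with the median as a line, whiskers reach the lowest and highest spot, and grey boxes are the comparisons that chose the spots. In leaf salt at 9 h the medians are 0.52 and -0.65, while in leaf cold at 3 h they are -0.09 and 0.68.

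In leaf salt the sign of the change at 27 h was already present in most spots at the earlier times. All 77 positive spots were above the control at 3 h and 68 at 9 h, with medians of 0.49 and 0.52. In the choosing comparison at 27 h, limma called 59 positive and 34 negative spots with their sign, against 5.59% and 6.46% of all spots, and nothing is read from this. At 3 h 9 of the 77 were called positive and none negative, where 0.705% of all 15601 spots tested were called positive and 0.0513% negative. At 9 h 22 were called positive and none negative, against 3.81% and 4.19% of all spots. The count at 9 h was 9 without leaf salt replicate 2 and 14 without either control replicate 2 or control replicate 3. The count at 3 h was 3 without control replicate 2. After quantile scaling between arrays the count at 9 h was 13.

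The negative spots had small changes at 3 h. At this time their median was -0.23, 44 of 51 lay below the control, and limma called none. Under an unadjusted p of 0.05 there was 1 spot, where 8.53% of all spots were. With the alternative fits run here the count of called spots stayed at 0. At 9 h the median was -0.65, 49 of 51 lay below the control and 6 were called negative, against 4.19% of all spots. This count was 11 without leaf salt replicate 1, 11 with the replicate number as a block and 13 when only the compared groups were fitted. The 6 spots were 134675, the pair 140526 and 139682, the pair 150583 and 152442, and 138102.

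On single arrays the median of the positive set was above every control array on each leaf salt array of the same time. Its median at 27 h was 1.21, 1.04 and 0.80 on the 3 salt arrays, against 0.04, 0.06 and 0.17 on the control arrays and 0.21, 0.16 and 0.45 on the cold arrays. At 9 h the salt arrays stood at 0.43, 0.77 and 0.47 and the cold arrays at 0.34, 0.64 and 0.54, so that salt and cold overlapped there. The control arrays at 9 h were lower, at 0.14, 0.12 and 0.06. At 3 h the salt arrays had medians of 0.66, 0.60 and 0.47, and the cold arrays -0.20, -0.15 and 0.03. Salt and cold did not overlap at 3 h, and the cold arrays overlapped the controls at 0.09, -0.07 and 0.04.

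**Figure D2:**
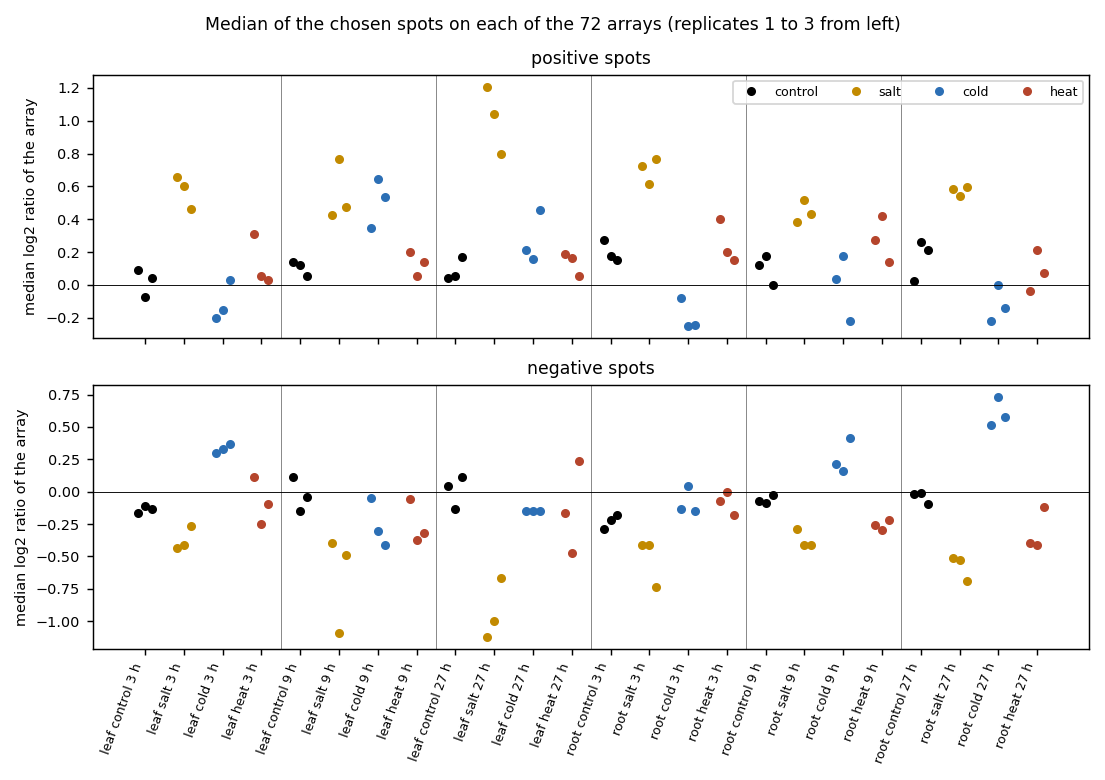
Median log2 ratio of the positive spots (upper panel) and negative spots (lower panel) on each of the 72 arrays, with replicates 1 to 3 from left to right within each group and colour for the condition. The positive spots have medians of 1.21, 1.04 and 0.80 on the leaf salt arrays at 27 h, and the negative spots have medians of 0.30, 0.33 and 0.37 on the leaf cold arrays at 3 h.

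Of the times that the rule did not use, the negative set separated salt from cold on the array medians at 3 h. Its medians on the leaf cold arrays at 3 h were 0.30, 0.33 and 0.37, above the controls at -0.17, -0.11 and -0.14 and above the salt arrays at -0.43, -0.41 and -0.27. At 9 h the salt arrays stood at -0.40, -1.09 and -0.49, and the array of replicate 2 was the lowest. The cold arrays at 9 h stood at -0.05, -0.30 and -0.41 and overlapped the salt arrays.

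The rule asked for nearness to the control in cold at 27 h and not at the earlier times. In leaf cold at 3 h or 9 h 34 of the 77 positive spots and 21 of the 51 negative spots were called, in either direction, where 29.8% of all spots were. The other 43 positive and 30 negative spots had no call at either time. At 3 h the negative spots had a positive median of 0.68, and 15 of 51 were called positive and none negative, against 9.17% and 6.85% of all spots. The largest of these changes were 2.87 in spot 139768 and 2.78 in spot 159282. The positive spots were divided at 3 h, with a median of -0.09, 6 (7.79%) called positive and 10 (13%) called negative. The share called positive was below the 9.17% of all spots, and the share called negative was above the 6.85%. The 10 included both spots of the pair 156815 and 157659, at -1.47 and -1.46, and of the pair 138159 and 137315, at -1.27 and -1.25. The 6 included 153655 at 1.89 and the pair 141461 and 140617 at 1.14 and 1.12. The 10 calls became 5 without leaf cold replicate 2 and 6 without control replicate 3, the 15 calls became 9 after quantile scaling, and the 6 became 3 over spots with no missing value.

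At 9 h in cold the positive spots had a median of 0.34, with 26 called positive and none negative, against 11.8% and 10.7% of all spots. This count was 6 after quantile scaling, while leaving out any single array gave 19 to 29. In the negative set 5 spots were called negative and 1, spot 138114, was called positive at 1.54. The 5 were the pair 134675 and 136534 with 143860, 138102 and 155722, and their number was 9 with the replicate block, 2 without cold replicate 2, control replicate 1 or control replicate 2, 3 without cold replicate 3, and 0 after quantile scaling.

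The change in cold between 3 h and 9 h was tested as a contrast that was added after seeing the data. Between these times 17 positive spots were called lower at 3 h than at 9 h and 1, spot 156385, was called higher, against 1.41% and 0.891% of all spots. The pair 156815 and 157659 led with differences of -3.29 and -2.97. Spot 156815 stood at -1.09, -2.12 and -0.84 on the leaf cold arrays at 3 h, at 2.29, 1.66 and 2.15 at 9 h, and at 0.51, -0.49 and 0.80 at 27 h. It was thus below every control array at 3 h (0.26, -0.17 and 0.28), above every control array at 9 h (0.60, -0.30 and 0.33), and overlapped them at 27 h (0.21, 0.40 and 0.57). Quantile scaling left 4 of the 17 calls. In the negative set 5 spots were called higher at 3 h than at 9 h, and these were 158852, 159282, 139768, 160711 and 139274. Their number was 8 with the replicate block and 2 after quantile scaling.

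**Figure D3:**
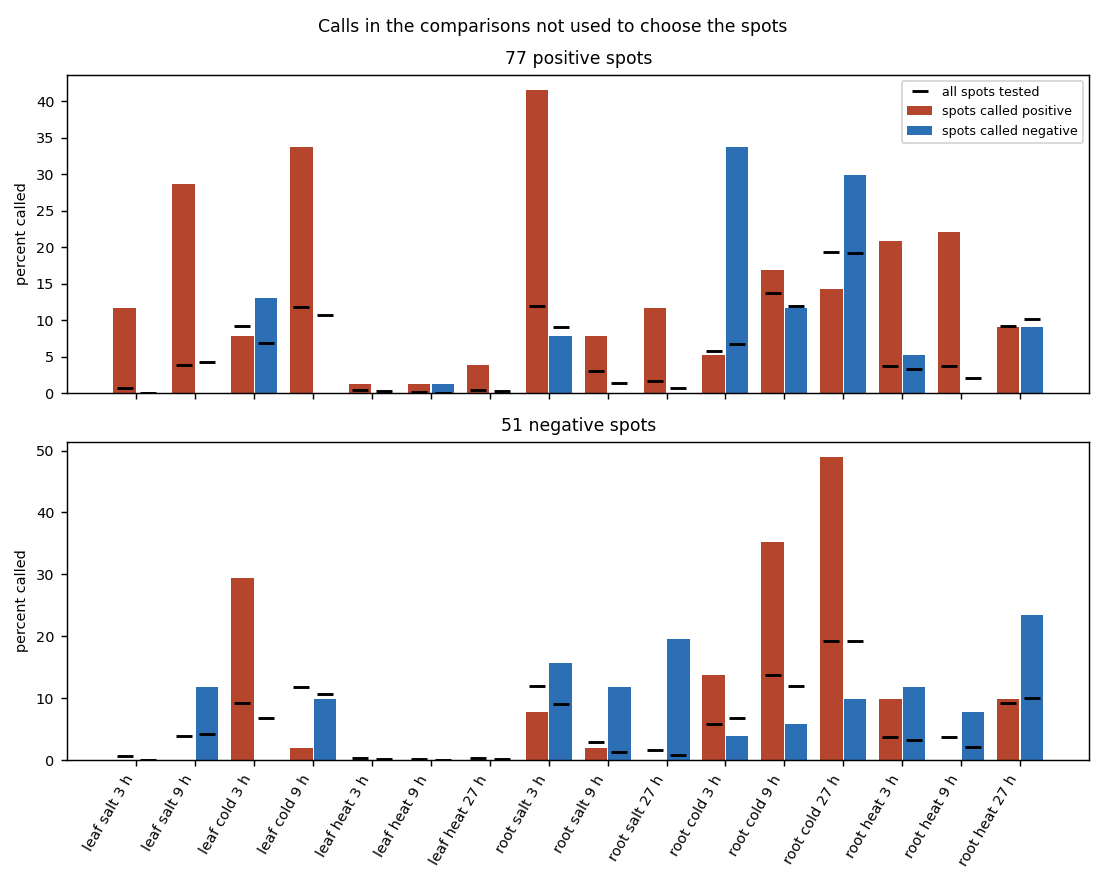
Percent of the 77 positive spots (upper panel) and 51 negative spots (lower panel) called positive (red bars) or negative (blue bars) by limma in the 16 comparisons that did not choose them. Black marks give the percent of all spots tested. The leaf heat comparison at 27 h shares its control arrays with the choice. In root salt at 3 h 41.6% of the positive spots were called positive, against 11.9% of all spots.

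Salt and cold were then compared directly in leaf at the times that the rule did not use. At 3 h the 2 sets separated by stress in the direction of their sign at 27 h. Separate salt and cold changes share their control arrays, and this contrast does not use them. Of the positive spots 29 of 77 were higher in salt than in cold and none lower, against 3.69% and 5.67% of all spots. Of the negative spots 21 of 51 were lower in salt than in cold and none higher. The median differences were 0.49 and -0.81. Leaving out single arrays gave 21 to 29 and 16 to 21 calls, and no other fit moved either count by more than 1.5 times. The largest positive differences were 2.11 and 2.09 in the pair 156815 and 157659 and 1.96 in spot 134909. The largest negative ones were -2.98 in spot 139768 and -2.88 in spot 158852. Among the spots beyond both limits at 27 h, 3.56% of the 393 positive ones were called higher in salt and 6.36% lower, and 2.77% of the 470 negative ones were called lower and 8.72% higher. For the positive ones these shares are close to those of all spots, while the negative ones were called higher more often than all spots and lower less often, which was not tested.

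At 9 h the positive spots no longer separated the stresses. Their median difference was 0.04, with 5 spots higher in salt and 6 lower, against 2.61% and 4.78% of all spots. The 5 were 162069, 142273, 143302, 150190 and 152049. These counts became 0 for higher calls and 2 for lower calls with the compared groups alone, and 0 for both after quantile scaling. Leaving out leaf salt replicate 1 or 2 gave 2 and 1 higher calls, and leaving out leaf cold replicate 1 or 2 gave 2 and 3. The lower calls ranged from 1 to 4 when single arrays were left out, with 1 without leaf salt replicate 3 or leaf cold replicate 2, 2 without leaf salt replicate 1 or 2 and 3 without leaf cold replicate 3. Of the negative spots 9 were lower in salt and none higher, with a median difference of -0.43. This count was 2 with the compared groups alone and after quantile scaling, 5 without leaf cold replicate 1, 3 without leaf cold replicate 2 and 4 without leaf salt replicate 2.

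**Figure D4:**
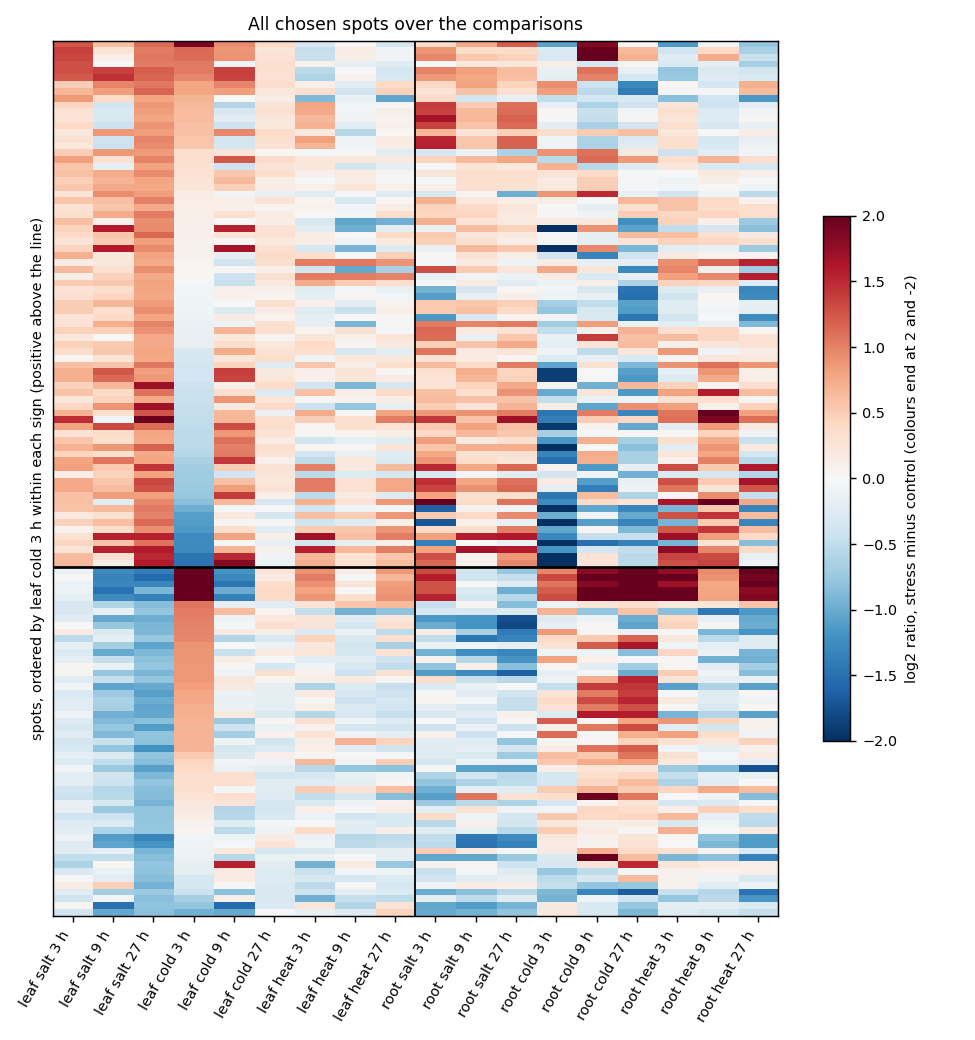
Change of each of the 128 spots (rows) in the 18 comparisons (columns), as log2 ratio on stress arrays minus control arrays, with colours that end at 2 and -2. Positive spots are above the horizontal line, and rows are ordered by leaf cold at 3 h within each sign. Leaf salt at 27 h and leaf cold at 27 h chose the spots, and the negative spots are mostly red in leaf cold at 3 h, where their median is 0.68.

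In root the positive spots also tended to be positive under salt. Their medians were 0.53, 0.37 and 0.45 at 3, 9 and 27 h, and 61, 70 and 67 of the 77 lay above the control. At 3 h 32 were called positive and 6 negative, against 11.9% and 9.06% of all 14866 spots tested in root. The 32 calls included spot 143519 at 2.03 and spot 154784 at 1.66. The 6 negative calls were 160819, 158960 and 162224, which shared a profile, with the pair 137027 and 137871 and spot 155937. At 9 h 6 were called positive and none negative, against 2.96% and 1.37% of all spots, and at 27 h 9 and none, against 1.58% and 0.747%. These counts rested on single arrays. The 6 became 1 without root control replicate 3, 3 without root salt replicate 2, 2 without root salt replicate 3 and 10 without root salt replicate 1. The 9 became 1 without root control replicate 1, 5 without control replicate 2 or 3, 3 without root salt replicate 1 or 2 and 4 without replicate 3, and it was 18 with the replicate block and 22 with the compared groups alone. After quantile scaling the positive calls at 3, 9 and 27 h were 10, 13 and 14. On the deposited scale 55.7%, 38.4% and 30.5% of the positive spots beyond both limits were called positive in root salt at these times. The shares of the chosen positive spots were lower, at 41.6%, 7.79% and 11.7%. That difference was not tested.

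The negative spots were mostly negative in root salt, with medians of -0.26, -0.31 and -0.51. At 3 h 8 were called negative and 4 positive, against 9.06% and 11.9% of all spots. The 4 positive calls are 7.84% of the set, below the share of all spots. At 9 h 6 were called negative and 1 positive, against 1.37% and 2.96% of all spots. At 27 h 10 were called negative and none positive, against 0.747% and 1.58%. The largest changes at 27 h were -1.81 in spot 151631, -1.75 in spot 155732 and -1.64 in spot 150787, which belong to pairs with one profile. The 8 calls became 5 without root salt replicate 3 and with the compared groups alone, and 2 after quantile scaling. The 6 calls became 2 without root control replicate 1 or 3, without root salt replicate 2 or 3, and with a trended and robust variance. The 10 calls became 6 without root control replicate 1 or 2 or root salt replicate 1, and 2 without root salt replicate 3. The 4 positive calls at 3 h, in spots 159282, 160711, 158852 and 151728, became 0 without root control replicate 1 or 2 or root salt replicate 2, and 1 without root salt replicate 3. The positive call at 9 h, in spot 152798, was lost without any 1 of the 6 arrays. Of the negative spots beyond both limits 43.2%, 5.96% and 4.47% were called negative in root salt at 3, 9 and 27 h. The shares of the chosen negative spots were 15.7%, 11.8% and 19.6%, and the difference was not tested.

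At 1 or more of the 3 times 37 positive and 14 negative spots were called in root salt with their leaf sign, where 13.2% of all spots were called positive and 9.89% negative. At all 3 times 4 negative spots and no positive one were so called, against 0.262% and 0.908% of all spots. Whether the salt change differed between leaf and root was tested in a fit to all 72 arrays. At 3 h 5 positive spots had a higher change in leaf than in root and none a lower one, against 0.869% and 1.07% of all 13585 spots. They were the pair 158960 and 160819 (2.21 and 2.17), the pair 137871 and 137027 (1.44 and 1.40) and spot 155937 (1.23). Spot 158960 stood at 0.82, 0.23 and 0.24 on the leaf salt arrays, above the controls at -0.10, -0.09 and -0.25. In root it stood at -1.51, -2.18 and -0.69 in salt, below the controls at 0.25, 0.15 and 0.11. The 5 calls became 2 without leaf control replicate 1, 2 or 3, leaf salt replicate 1, root control replicate 1 or 2 or root salt replicate 2, and 3 without root control replicate 3 or root salt replicate 1. With the replicate block 2 positive spots had a lower change in leaf, and with the compared groups alone 4. No negative spot was called, with 6 of 51 under an unadjusted p of 0.05, where 16.7% of all spots were. At 9 h limma called no spot of either set, where 0.0662% of all spots were called positive and 0.206% negative. Under an unadjusted p of 0.05 there were 12 positive and 4 negative spots, and 10.7% of all spots. With the replicate block, the compared groups alone or quantile scaling 1 negative spot was called.

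In root cold many positive spots were called negative and many negative spots positive. Root cold and root salt share their control arrays. The medians of the positive spots were -0.20, -0.01 and -0.30 at 3, 9 and 27 h, and those of the negative spots 0.17, 0.28 and 0.50. At 3 h 26 positive spots were called negative and 4 positive, against 6.72% and 5.79% of all spots. The 4 were the pair 144172 and 142313 with 143117 and 140644. At 27 h 23 were called negative and 11 positive, against 19.2% and 19.3%. Among the negative spots 25 of 51 were called positive at 27 h and 5 negative, and at 9 h 18 and 3, where 13.7% of all spots were called positive and 11.9% negative. At 9 h 13 positive spots were called positive and 9 negative, close to the shares of all spots. The spots beyond both limits were different in count at 27 h, with 46.8% of the positive ones called positive and 57.7% of the negative ones called negative in root cold. That difference was not tested. At 3 h 13.7% of the positive spots beyond both limits were called negative and 4.58% positive. They thus leaned the same way as the chosen positive spots, of which 33.8% were called negative and 5.19% positive. The 11 became 6 without root cold replicate 2 or 3 and 7 without root control replicate 1 or 2. After quantile scaling the 11 became 3 and the 13 became 4. The 9 became 3 without root cold replicate 3. The 4 calls became 2 without root cold replicate 1 or 3 or root control replicate 2, and 1 without root control replicate 3. The 5 became 1 without root control replicate 2, 2 without root cold replicate 1 and 3 without root cold replicate 2 or 3 or root control replicate 1. The 3 calls at 9 h became 1 without root cold replicate 1.

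A direct comparison of salt with cold in root, added after seeing the data, separated the sets at all times. At 3 h 53 of 77 positive spots were higher in salt and 6 lower, against 16% and 13.8% of all spots. At 27 h 45 were higher and 3 lower, against 20.5% and 19.6%, and leaving out single arrays gave 47 to 52 and 40 to 45 higher calls. Among the negative spots 35 of 51 were lower in salt at 27 h and 2 higher, with 32 to 35 lower calls when single arrays were left out. The median differences at 27 h were 1.12 and -1.14. At 9 h 31 positive spots were higher and 6 lower and 31 negative spots were lower and 1 higher, against 12.8% and 13.4% of all spots. The 31 positive spots became 16 without root cold replicate 3 and 20 without root salt replicate 2. At 3 h 18 negative spots were lower in salt and 1 higher, and the 18 became 8 without root salt replicate 3. The positive spots lower in salt at 27 h were the partners 142273 and 143117 with 134934, and without root cold replicate 2 they became 1. The negative spots higher in salt at 27 h were 143860 and 139565. They became 0 without root cold replicate 1 or 2 or root salt replicate 1 and 1 without root salt replicate 3. At 9 h the single higher spot was 139565, lost without root cold or root salt replicate 1, and at 3 h it was 151337. Of the positive spots beyond both limits 61.6%, 34.1% and 24.2% were higher in salt at 3, 9 and 27 h. The shares lower in salt were 3.82%, 17.3% and 24.9%. Of the negative ones 24.5%, 12.1% and 15.5% were lower, and 9.36%, 15.5% and 39.1% higher. The chosen positive spots had 68.8%, 40.3% and 58.4% higher, so at 3 and 9 h this was not particular to them. The differences between these sets were not tested.

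Few spots were called in leaf heat, among the chosen spots as among all spots. The medians of both sets lay between -0.21 and 0.10 at the 3 times. Limma called 1 spot of the positive set (1.3%) positive and none negative at 3 h, against 0.378% and 0.237% of all spots. At 9 h it called 1 (1.3%) positive and 1 (1.3%) negative, against 0.135% and 0.032%. At 27 h it called 3 (3.9%) positive and none negative, against 0.41% and 0.218%. The shares called positive were above those of all spots but rested on 1 to 3 spots. None of the negative spots was called in leaf heat. Under an unadjusted p of 0.05 there were 5, 6 and 9 negative and 25, 9 and 14 positive spots at 3, 9 and 27 h, where all spots had 11.1%, 8.74% and 12.1%. The spots called positive were 143302 at each time and the pair 142857 and 142013 at 27 h, and the spot called negative was 162872. Each of these calls was lost when single arrays were left out, namely any of the 6 arrays at 9 h, any control array or heat replicate 1 at 3 h, and any control array or heat replicate 1 at 27 h. At 3 h the positive calls were 3 without heat replicate 2 and 10 after quantile scaling. The comparison at 27 h shares its control arrays with the choice of spots. Spot 143302 nevertheless stood above every control array in heat at 3 and 9 h, at 0.78, 0.34 and 0.42 against -0.47, -0.36 and -0.69, and at 0.77, 0.77 and 0.51 against -0.30, -0.34 and -0.36.

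In root heat 16 positive spots were called positive and 4 negative at 3 h, against 3.73% and 3.24% of all spots, and 17 and none at 9 h, against 3.67% and 2.07%. At 27 h 7 were called in each direction, against 9.19% and 10.1%. The 17 calls became 2 without root heat replicate 1, 10 without control replicate 1, 8 without control replicate 3, and fitting root heat and control by themselves left 3. The 16 became 4 and 7 without root heat replicates 1 and 2 and 9 and 5 without control replicates 2 and 3. The 4 negative calls were 153655, 145126 and the pair 159752 and 160596, and became 1 without control replicate 1 and 2 without control replicate 3 or heat replicate 1 or 2. At 27 h the 7 positive calls became 11 without heat replicate 3, and the 7 negative calls became 4 without heat replicate 1 or control replicate 2. In the negative set 6 spots (11.8%) were called negative and 5 (9.8%) positive at 3 h, and 4 (7.84%) and none at 9 h. Leaving out single arrays gave 4 to 6, 0 to 5 and 1 to 4 of these calls. At 27 h 12 spots (23.5%) of the negative set were called negative and 5 (9.8%) positive. Of the negative spots beyond both limits 51.7% were called negative at 27 h and 1.28% positive, and the difference was not tested. The 12 became 2 with the compared groups alone, and leaving out single arrays gave 8 to 16. The 5 spots called positive at 27 h were the same as those called higher in leaf cold at 3 h than at 9 h. These 5 calls became 1 without root heat replicate 1 or control replicate 2.

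Spots with the same profile over the 72 arrays were grouped where they were joined by correlations of at least 0.95, which gave 48 profiles among the positive spots and 35 among the negative ones. Only 7 and 3 of these held more than 1 printed sequence. The median correlation between spots of a set was 0.27 and 0.35, so neither set moved as a single unit across conditions. The correlations share arrays and are a description. The following spots had the largest changes in leaf salt at 9 h in each set, 10 of each sign, and the named genes follow.

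The pair 161013 and 162872 had the largest positive change in leaf salt at 9 h. Spot 161013 stood at 2.16, 2.11 and 1.86 on the salt arrays at 9 h, at 1.94, 2.30 and 2.09 on the cold arrays and at 0.31, 0.39 and 0.67 on the control arrays. Salt and cold overlapped, and both were above every control array. The change was 1.59 ± 0.23 (SE, adjusted p = 2.48e-05 by limma) in salt and 1.65 ± 0.23 (adjusted p = 3.25e-06) in cold. At 27 h the salt arrays were at 1.76, 1.57 and 0.77 and the cold arrays at 0.50, 0.85 and 0.82, against controls at 0.39, 0.47 and 0.41. The lowest salt array, that of replicate 3, lay within the range of the cold arrays. In root at 3 h the cold arrays stood at -1.15, -1.94 and -1.94, below the controls at 0.43, 0.25 and 0.33, a change of -2.02 ± 0.41 (adjusted p = 0.00103).

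The pair 138159 and 137315 was positive in salt in both tissues. On the leaf salt arrays at 9 h spot 138159 stood at 1.17, 1.65 and 1.91, above the controls at -0.36, 0.07 and 0.40. The cold arrays at 9 h, at 0.42, 0.31 and 1.43, overlapped both groups. The salt change was 1.54 ± 0.39 (adjusted p = 0.0137). In leaf cold at 3 h the spot was below every control, at -0.43, -1.60 and -0.64 against 0.28, 0.15 and 0.71. In root salt the values were 1.35, 1.73 and 1.25 at 9 h and 2.07, 2.17 and 1.66 at 27 h, above controls at -0.23, 0.24 and -0.69 and at 0.10, 0.59 and 0.47. The change was 1.67 ± 0.33 at 9 h and 1.58 ± 0.33 at 27 h, both called. In root cold at 27 h it stood at -0.03, -0.49 and 0.23, and the direct difference between salt and cold there was 2.06 ± 0.33. The changes of spot 138159 in heat were positive too. They were 1.56, 0.66 and 1.03 in leaf at 3, 9 and 27 h, none of them called, and 1.79, 0.98 and 0.40 in root. A positive change was therefore not particular to salt.

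**Figure D5:**
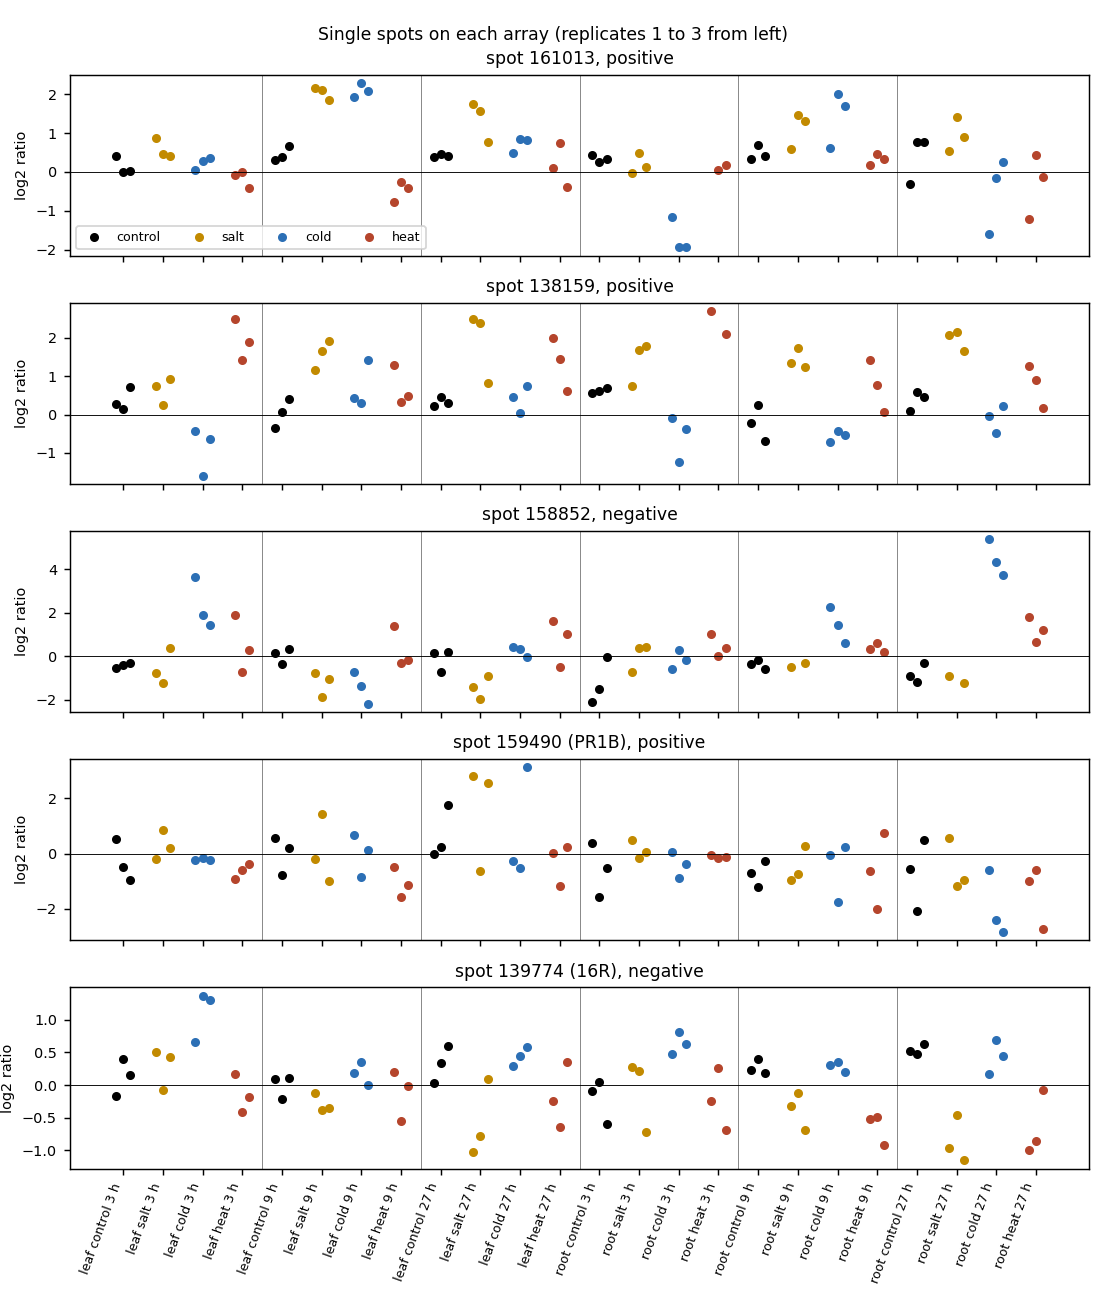
Log2 ratio of 5 spots on each array, with replicates 1 to 3 from left to right and colour for the condition. Spot 138159 stands at 1.35 to 2.17 on the root salt arrays at 9 and 27 h, and spot 158852 stands at 3.76 to 5.39 on the root cold arrays at 27 h.

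The pair 160596 and 159752 was called positive in leaf salt at 3 h as well as at 9 h. Spot 160596 stood at 1.33, 1.61 and 1.38 in salt at 3 h, above the controls at 0.24, -0.07 and 0.47, and the cold arrays overlapped salt at 0.98, 0.90 and 1.65. Its changes in salt were 1.23 ± 0.23 at 3 h and 1.46 ± 0.23 at 9 h. In cold they were 0.96 at 3 h, 1.35 at 9 h and 0.30 at 27 h, so this pair met the cold limit only after being called positive in cold at both earlier times. In root salt it was called positive at 3 and 9 h as well, with changes of 0.87 and 0.78.

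A profile of 4 spots, the pairs 145931 with 145087 and 151998 with 150139, was positive in leaf salt at each time, with median changes over the 4 spots of 0.71, 1.19 and 1.0. In leaf cold the medians were -0.45 at 3 h, 1.33 at 9 h and 0.28 at 27 h, so the sign in cold turned between the first 2 times. Spot 145931 stood at 0.96, 0.76 and 0.68 in salt at 3 h and at -0.45, -0.53 and -0.56 in cold, with controls between them at 0.08, -0.10 and 0.01. The difference between salt and cold at 3 h was 1.31 ± 0.16 (adjusted p = 5.06e-06), and the change in cold at 3 h minus that at 9 h was -1.81 ± 0.23 (adjusted p = 3.04e-05). In root the same spot was negative in cold at 3 h, at -1.32, -1.69 and -1.51 against controls at 0.39, 0.30 and 0.57. Spot 139355, whose partner 141214 was also chosen, had the 10th largest change at 9 h, 1.06 ± 0.33 (adjusted p = 0.0451), and was called positive in cold at 9 h at 1.41.

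A second kind of positive profile was below the control in leaf salt at 9 h, without a call, and strong in root salt. It held 6 spots, the pairs 152925 with 154784, 158345 with 159189, and 161110 with 162969. Its median changes over the 6 spots in leaf salt were 0.29, -0.39 and 0.87 at 3, 9 and 27 h, and in root salt 1.46, 0.56 and 1.15. In leaf cold and leaf heat at 3 h the medians were 0.60 and 0.73. Spot 158345 stood at 1.46, 2.04 and 1.49 in root salt at 3 h, above the controls at 0.11, 0.24 and 0.43, while root cold at 0.44, -0.17 and 0.03 overlapped the controls. The change in root salt was 1.40 ± 0.34 (adjusted p = 0.00409). In leaf salt at 9 h it stood at -0.09, 0.04 and -0.17, just below the controls at 0.36, 0.30 and 0.21. The profile and the spots named for it were picked after their values were seen.

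Among the negative spots, 5 spots of 4 printed sequences shared a profile with the largest changes of either set. They were 139274, 139768, 159282 and the pair 158852 and 160711. Their median changes over the 5 spots were -1.29 and -1.36 in leaf salt at 9 and 27 h and 2.75, -1.29 and 0.35 in leaf cold at 3, 9 and 27 h. The median change in leaf cold was thus negative at 9 h, but no spot of this profile was called there. In root cold the medians were 1.21, 2.05 and 5.12. Spot 158852 stood at 5.39, 4.35 and 3.76 on the root cold arrays at 27 h, above controls at -0.89, -1.18 and -0.32, a change of 5.30 ± 0.46 (adjusted p = 1.31e-09). In leaf cold at 3 h it stood at 3.66, 1.92 and 1.45, above controls at -0.53, -0.40 and -0.30. In leaf salt at 9 h the values were -0.79, -1.89 and -1.06, below the controls at 0.15, -0.34 and 0.33. The salt change of -1.29 ± 0.58 was not called (adjusted p = 0.183), and no spot of this profile was called in leaf salt at 9 h. The spread between replicates was wide for these spots, as on the leaf heat arrays at 3 h, with 1.92, -0.71 and 0.31.

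The pair 140526 and 139682 was negative in leaf salt and stayed near the control in leaf cold at each time. Spot 140526 stood at -1.06, -1.12 and -0.47 in leaf salt at 9 h, below controls at 0.00, 0.08 and 0.59 and cold arrays at -0.10, 0.47 and 0.00. At 27 h salt was at -0.84, -1.0 and -1.09, against controls at 0.36, 0.57 and 0.11 and 2 measured cold arrays at 0.07 and 0.94. The changes in leaf cold were -0.06, -0.11 and 0.16. At 9 h the salt change was -1.11 ± 0.24 (adjusted p = 0.00378), and the difference between salt and cold was -1.0 ± 0.24 (adjusted p = 0.00983). In root salt the changes were -1.43 ± 0.54 and -1.26 ± 0.54 at 9 and 27 h and were not called. The root salt arrays of replicate 3 were the lowest, at -2.06 at both times.

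The pair 150583 and 152442 was called negative in leaf salt at 9 h and positive in cold at some times. Spot 150583 stood at -0.86, -1.32 and -0.89 in leaf salt at 9 h, below controls at 0.04, -0.01 and 0.07, and cold at 0.34, 0.42 and -0.12 overlapped the controls. The change was -1.06 ± 0.19 (adjusted p = 0.000478). In leaf cold at 3 h it was 0.83 ± 0.19, called positive. In root cold it changed from -0.48 at 3 h, not called, to 1.39 and 1.43 at 9 and 27 h, both called positive, and its root salt changes of -0.26, -0.15 and -0.01 were not called. The leaf minus root difference in the salt change at 9 h was -0.91 ± 0.30, with an adjusted p of 0.229. The pair 134675 and 136534 changed alike in both stresses at 9 h. Its first spot was at -1.49 ± 0.41 in salt and -1.53 ± 0.41 in cold, both called, and its second at -1.02 ± 0.34 in salt, not called (adjusted p = 0.0659), and -1.01 in cold, called.

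The 5 named genes were not picked by the size of their change. PR1B is a pathogenesis-related protein 1, a secreted protein widely used as a marker of defence in plants. Its pair had changes of 0.93 and 0.93 in leaf salt at 27 h, but the arrays of spot 159490 stood at 2.82, -0.64 and 2.55 in salt, -0.28, -0.51 and 3.12 in cold and -0.03, 0.23 and 1.74 in the control. The 3 groups overlapped, and the array of replicate 3 was high in all of them. The SE of its changes in leaf was 0.77, and no comparison called either spot. Spots of another printed PR1B pair had too few values to enter the choice.

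The pair of 16R was negative in salt late and positive in cold early. Spot 139774 stood at -1.03, -0.79 and 0.10 in leaf salt at 27 h and at 0.65, 1.37 and 1.29 in leaf cold at 3 h, the latter above controls at -0.17, 0.39 and 0.15. In root salt at 27 h it stood at -0.97, -0.45 and -1.15, below controls at 0.52, 0.47 and 0.63, a change of -1.40 ± 0.25 (adjusted p = 0.00199). Its partner 141633 was called there as well, at -1.17. In root cold at 27 h the 2 spots were at -0.11 and -0.02. Other spots that the table gives to 16R had too few values in some groups, and the pair 155817 and 157676 had leaf cold changes of -2.43 and -0.85 at 27 h, unlike the chosen pair.

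LOC102594491 was represented by spot 134726, at 0.97, 0.73 and 1.10 in leaf salt at 27 h. In root salt at 3 h it stood at 0.73, 1.05 and 0.79, above controls at -0.36, -0.04 and -0.12, a change of 1.03 ± 0.31 (adjusted p = 0.0197). Its partner 133882 had nearly the same leaf salt change at 27 h, 1.05, but 0.49 in leaf cold, and so was not chosen. At 9 h the partners disagreed in leaf. Spot 134726 changed by 0.725 in salt and -0.08 in cold, and spot 133882 by 1.52 and 1.21. LOC102587659 was represented by the pair 156477 and 157321, with leaf salt changes of 0.75 and 0.76 at 27 h. It was called positive in leaf cold at 9 h, at 1.10 and 1.04, and negative in root cold at 3 h, at -1.16 and -1.33. Another pair of spots for this gene, 159098 and 159942, had the opposite sign in leaf salt at 27 h, at -0.63 and -0.43, so the spots of this gene disagree. LOC102593050, spot 132947, changed by -0.85 in leaf salt at 27 h, and its partner 133791 by -0.90 with -0.41 in cold. The second pair for this gene, 145176 and 147035, changed by -0.53 and -0.53 and so stayed under the salt limit.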

How the data were processed

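The authors deposited log2 ratios for 72 two-colour arrays in a single table. Per the submitters' processing notes limma was used, with no role or version given. Scanner, background correction and normalization within arrays were not given in the sources used here. RNA extraction is labelled both as by a column kit and as by phenol or trizol. Column medians of the deposited log2 values were 0 to 0.014, and arrays held 15580 to 20545 values. The number of arrays limits the precision, and without intensities no spot could be judged against background.

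Groups and replicate numbers come from the labels. Changes were tested with lmFit and eBayes of limma 3.58.1 (R 4.3.3), without further normalization, over 36 arrays and 15601 spots in leaf, 36 arrays and 14866 spots in root, and 72 arrays and 13585 spots for the difference between tissues. A spot needed 2 values in each group. Empty cells were left empty. Benjamini-Hochberg adjustment covered all spots of a fit. The text names the 10 spots of each sign with the largest change in leaf salt at 9 h, all spots with a gene name, and spots behind small counts or shared profiles, which were picked after their values were seen. The members and lists were chosen with earlier results of these data known.

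Gene names come from a table for the array's spots: 1630 spots had 1 gene, 180 several and 30638 none. All 1630 matched a RefSeq gene ID. The labels make the replicate numbers independent experiments that share a reference pool, so the numbers pair the arrays. Deviations of same-numbered stress and control arrays correlated with r from -0.0372 to 0.496. Alternatives were the replicate number as a block, the compared groups alone, quantile scaling, centred arrays, trended and robust variances, averaged duplicate spots, spots with no missing value, each array left out, and other limits in the rule. The fits were tested on simulated data.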

Additional observations from a re-analysis of the deposited data

Results flagged for a closer look

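In leaf minus root for the salt change at 3 h, 5 positive spots were called positive, which is a difference between tissues by its own test. They were 158960, 160819, 137871, 137027 and 155937, with differences of 1.23 to 2.21, and all were negative in root salt and positive in leaf salt on the mean of 3 arrays.

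The change in leaf cold differed between 3 h and 9 h by a contrast added after seeing the data. Of the positive spots 17 were called negative and 1 was called positive, spot 156385 at 1.11 ± 0.28. Of the negative spots 5 were called positive, and their differences were 3.70 to 4.22. The 5 spots had 1 profile and 4 printed sequences, so they are not 5 separate genes. No group had the 4 or more arrays that a test for single outlying arrays needs.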

How the results depend on the processing

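Each array was left out in turn, which gave the following ranges of called spots. They were 3 to 8 (from 9) for positive spots in leaf salt at 3 h, and 9 to 20 (from 22) for positive and 4 to 11 (from 6) for negative spots in leaf salt at 9 h. In salt minus cold at 9 h they were 1 to 5 (from 5) and 3 to 9 (from 9), and in root salt at 3 h 24 to 30 (from 32) and 5 to 10 (from 8). Counts of 0 stayed at 0 for negative spots in leaf salt at 3 h and for both sets in leaf minus root at 9 h. The numbers of chosen spots were 68 to 108 positive and 61 to 94 negative without 1 of the experiments, and they held 41, 47 and 57 of the 77 positive and 26, 35 and 39 of the 51 negative spots without replicates 1, 2 and 3. With the replicate block the counts were 11 in place of 6 for negative spots in leaf salt at 9 h, and 1 in place of 0 for negative spots in leaf minus root at 9 h. The block moved 7 of the other counts by more than 1.5 times, up to 18 in place of 9 for positive spots in root salt at 27 h. By the same measure quantile scaling raised 18 and lowered 14 of the other counts. Fitting the compared groups alone raised 8 and lowered 15. With the compared groups alone the counts were 13 for negative spots in leaf salt at 9 h, 0 and 2 in salt minus cold at 9 h, 5 for negative spots in root salt at 3 h and 1 for negative spots in leaf minus root at 9 h. After quantile scaling, positive spots numbered 13 in leaf salt at 9 h and 10 in root salt at 3 h, and negative spots 2 in root salt at 3 h and 1 in leaf minus root at 9 h. In salt minus cold at 9 h quantile scaling left 0 and 2. Over spots with no missing value 3 positive spots were called in salt minus cold at 9 h. With duplicate spots averaged, 4 in place of 2 positive pairs were called in leaf salt at 3 h and 2 in place of 0 negative pairs in root salt at 3 h. The rule itself gave 28 and 20 spots with a cold limit of 0.2, 257 and 249 with a salt limit of 0.5, and 29 and 14 with a salt limit of 1. After quantile scaling it gave 52 and 34, of which 26 and 18 were also chosen on the deposited scale. The cause of these differences was not tested. Signal over background could not be judged without intensities.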
